A study of Mus musculus with 6 samples.

Results

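A set of 9 genes that mark T and B lymphocytes was followed through xenograft tumors that grew in mice with little or no T and B cell development. The genes are Cd3d, Cd3e, Cd3g, Cd4, Cd8a, Cd5 and Cd28 for T cells, and Ms4a1 and Cd79a for B cells. They were chosen by symbol, as 9 of the 21700 mouse coding genes with a deposited value, and each was set against the value of 3 reads in its library. In the study, human MiaPaca-2 or Colo357 pancreatic cancer cells, both established cell lines, were implanted in the pancreas of 8-week-old mice. Treatment began 10 days later and lasted 3 weeks, with either saline as control or 30 mg/kg of 2G8 given 2 times per week. 2G8 is a rat antibody that blocks mouse TGFβR2, the type II receptor of TGFβ, and does not bind the human receptor. Mouse transcripts were then sequenced from 6 tumors, to find which genes of the host changed with 2G8.

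The groups were 2 MiaPaca-2 control tumors, 2 MiaPaca-2 2G8 tumors, 1 Colo357 control tumor and 1 Colo357 2G8 tumor. The 2 MiaPaca-2 libraries of a treatment are named A and B, and these letters pair no control with a treated tumor. Values of the 3 libraries of a treatment are always listed as MiaPaca-2 A first, then B, with Colo357 last. All samples are labelled with the strain NOD SCID, while the treatment description names NOD SCID or NSG mice. Both strains carry the scid allele of Prkdc, the kinase that rejoins broken DNA ends, and NSG mice also lack Il2rg, the receptor chain shared by several interleukins. Such hosts keep myeloid cells, and NOD SCID mice keep NK cells, which limits the model to an immune response without mature T and B cells. No label states that the libraries of a group came from separate mice, so the p-values measure the spread between these samples. Between the A and B libraries of a group the reads differed by more than counting noise, with a chi-square per degree of freedom of 28.1 in MiaPaca-2 control and 40.9 in MiaPaca-2 2G8.

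T cell receptors and antibodies are assembled by cutting and rejoining gene segments, a step that starts with Rag1 and Rag2 and needs the kinase made from Prkdc. Without it, precursors stop before they become T or B cells, although genes that precursors switch on early can still be transcribed. Several genes named for lymphocytes are also used by other leukocytes. In mice, Cd4 and Cd8a are carried by subsets of dendritic cells, and Cd5 is carried by some B cells.

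Between 6651556 and 10316655 reads fell on coding genes in a library, and the value of 3 reads lay between 0.287 and 0.453 CPM, the reads of a gene per 1000000 reads of its library after scaling. Among all coding genes, 73.9% had 3 or more reads in at least 1 library and 61.9% in every library. Each of the 9 lymphocyte genes reached 3 reads in at least 1 library, and 2 of them, Cd4 and Cd28, did so in all 6. Cd3g reached this limit in 5 libraries, Cd3d and Cd5 in 4, Cd8a and Ms4a1 in 3, and Cd3e and Cd79a in 1. With a limit of 10 reads only Cd4 remained in all 6 libraries, and 4 genes reached it in at least 1. The intervals and limits given here cover counting error only.

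**Figure D1:**
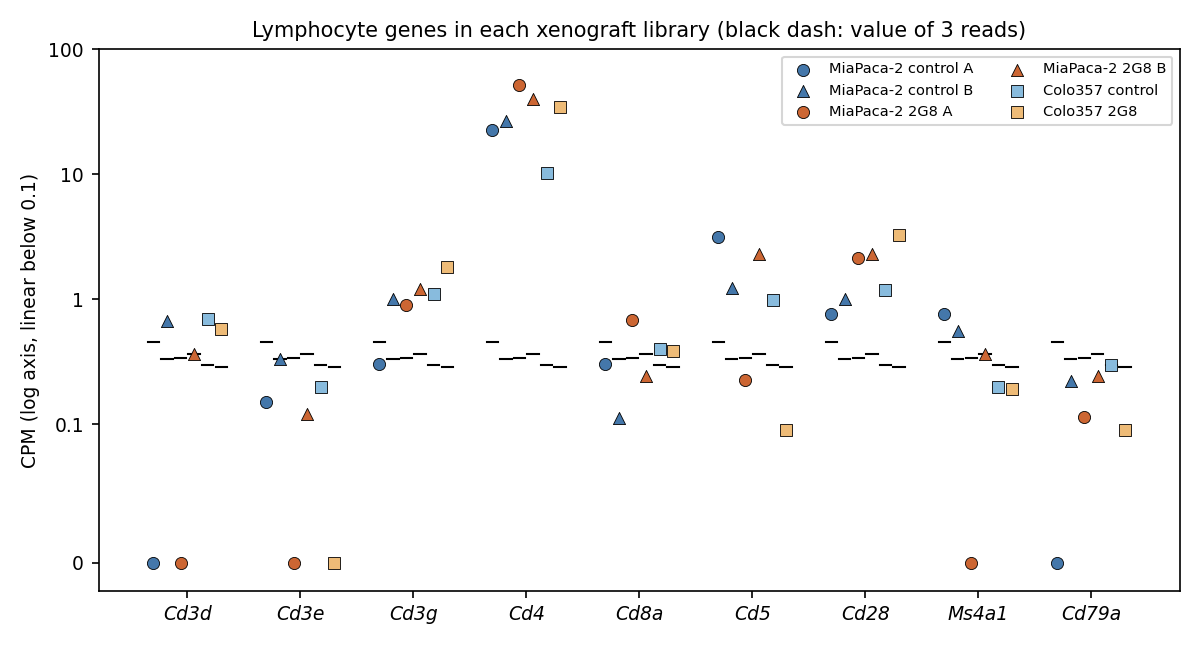
Level of each lymphocyte gene in each of the 6 libraries, in CPM on a log axis that is linear below 0.1, where colors and shapes mark the library and each black dash is the value of 3 reads in that library. Cd4 lies between 10.3 and 51.7 CPM, while the other genes lie between 0 and 3.25 CPM, on both sides of the dashes.

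Cd3d, Cd3e and Cd3g encode the signaling chains that carry the T cell receptor to the cell surface. The 3 genes are neighbors on chromosome 9 of mm10: Cd3g at chr9:44969572-44980431 on the minus strand, Cd3d at chr9:44981786-44987339 on the plus strand and Cd3e at chr9:44998740-45009627 on the minus strand. Cd3g and Cd3d are 1354 bases apart, and the whole cluster spans 40056 bases. Cd3d had 0, 6 and 7 reads in the control libraries, and 0, 3 and 6 reads in the 2G8 libraries. Cd3e had 1, 3 and 2 reads in control, and 0, 1 and 0 in 2G8 tumors. Cd3g had 2, 9 and 11 reads in control and 8, 10 and 19 in 2G8 tumors.

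The 3 genes thus differed in reads. Their merged exons differ in length too, with 1815 bases for Cd3d, 3269 for Cd3g and 4080 for Cd3e. MiaPaca-2 control A was the lowest of the 6 libraries for Cd3g and shared the lowest place, at 0 reads, with MiaPaca-2 2G8 A for Cd3d. By the limit of 3 reads used throughout, a count of 0 allows up to 0.453 CPM in MiaPaca-2 control A and 0.339 CPM in MiaPaca-2 2G8 A, and the exact two-sided 95% Poisson interval of 0 reads is wider, up to 0.557 and 0.417 CPM. The 6 libraries held 22 reads of Cd3d, 7 of Cd3e and 59 of Cd3g. Part of Cd3e lies under 2 other annotated genes, Gm48719 on the opposite strand and Gm48720 on the same strand, and the strand setting of the counting is not given in the sources used here. Its few reads are therefore uncertain in their origin.

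Cd4 encodes the co-receptor of helper T cells, which binds MHC class II, and Cd8a encodes a chain of the co-receptor of cytotoxic T cells, which binds MHC class I. Cd4 lies at chr6:124864692-124888221 on the minus strand and Cd8a at chr6:71373427-71379173 on the plus strand. Cd4 had 150, 241 and 104 reads in the control libraries, and 458, 333 and 361 reads in the 2G8 libraries. Cd8a had 2, 1 and 4 reads in the control libraries and 6, 2 and 4 in the 2G8 libraries. Cd4 was thus far above the limit in each library, while Cd8a stayed on either side of it. Cd8b1, the partner chain of Cd8a on cytotoxic T cells, had at most 2 reads in any library.

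Cd28 encodes the co-stimulatory receptor of T cells for Cd80 and Cd86, and Cd5 encodes a receptor that dampens antigen receptor signals. Cd28 lies at chr1:60716800-60773359 on the plus strand and Cd5 at chr19:10717116-10739002 on the minus strand. Cd28 had 5, 9 and 12 reads in the control libraries, and 19, 19 and 34 reads in the 2G8 libraries. Cd5 had 21, 11 and 10 reads in control, and 2, 19 and 1 in the 2G8 libraries. Cd28 was higher in each 2G8 library than in any control library. For Cd5, 2 of the 2G8 libraries fell below the limit and the other one was among the highest of the 6.

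Ms4a1 encodes CD20, a surface protein of B cells, and Cd79a encodes a signaling chain of the B cell receptor. Ms4a1 lies at chr19:11249675-11266241 on the minus strand, overlapping 4930526L06Rik on the opposite strand, and Cd79a lies at chr7:24897381-24902197 on the plus strand. Ms4a1 had 5, 5 and 2 reads in the control libraries, and 0, 3 and 2 in the 2G8 libraries. Cd79a had 0, 2 and 3 reads in control and 1, 2 and 1 in 2G8 tumors. Both genes thus lay at or near the limit throughout, with 5 reads as the highest value of Ms4a1 and 3 as that of Cd79a. Pooled over the control libraries, Ms4a1 was at 0.467 CPM with an exact 95% Poisson interval from 0.241 to 0.815, and over the 2G8 libraries it was at 0.181 CPM with an interval from 0.0589 to 0.423.

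To compare the genes with each other, CPM was divided by the length of the merged exons in kilobases. On this scale the mean level over the 6 libraries was 7.70 for Cd4, 0.322 for Cd3g, 0.290 for Cd28, 0.271 for Cd5, 0.211 for Cd3d, 0.111 for Cd79a, 0.0968 for Cd8a, 0.0556 for Ms4a1 and 0.0328 for Cd3e. The lowest library of Cd4, the Colo357 control at 2.55 CPM per kilobase, was above the highest library of each of the other genes, which was MiaPaca-2 control A for Cd5 at 0.643. Each other pair of neighbors in this order overlapped over the libraries. Per kilobase, the level of Cd4 was between 10.0 times the mean of the 3 Cd3 genes in the Colo357 control and 139 times in MiaPaca-2 2G8 A. The Cd3 genes together had between 3 and 25 reads in a library, so this ratio rests on few reads.

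Treatment with 2G8 was compared over all 6 libraries, 3 control against 3 2G8, to see which of the lymphocyte genes moved with the antibody. The cutoffs were an FDR no higher than 0.01, an average log2 CPM no lower than 0 and a fold change of 1.5 or more. With them limma called 0 of the 13587 tested genes, or 0%, and so none of the lymphocyte genes. At an unadjusted p under 0.05 in limma there were 259 genes, or 1.91%. On the recovered reads, edgeR's quasi-likelihood test called 0 genes, its exact test 5 and DESeq2's Wald test 4, with no lymphocyte gene among them. Of the 9 genes, 3 passed the filter on low reads and could be tested, namely Cd4, Cd28 and Cd5. Cd28 passed it through the 3 2G8 libraries and the Colo357 control, which were above the 1.13 CPM that the filter asked for, while MiaPaca-2 control A and B were below.

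Cd4 was at 22.6, 26.8 and 10.3 CPM in the control libraries, and at 51.7, 40.3 and 34.5 CPM in the 2G8 libraries. The lowest 2G8 library was thus above the highest control library, and the groups did not overlap. The control libraries had a mean of 19.9 ± 8.59 CPM (SD, n = 3), the treated ones one of 42.2 ± 8.77 CPM (SD, n = 3), and the ratio of the means was 2.12. On the log2(CPM + 1) scale the difference was 1.13 with a standard error of 0.35 (limma, unadjusted p = 0.0152, adjusted p = 1.00). The exact two-sided permutation test gave p = 0.1, the smallest p that 3 against 3 allow. With the cell line as a covariate the unadjusted p of Cd4 was 0.00109 in limma, and the adjusted p was 0.870. In the same limma fit the unadjusted p was 0.0318 for Cd28 and 0.199 for Cd5.

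Cd28 was at 0.755, 1.00 and 1.19 CPM in the 3 control libraries and at 2.15, 2.30 and 3.25 CPM in the 3 2G8 libraries. Its groups did not overlap either, and Colo357 2G8 was the highest of the 6. The mean rested on 26 reads in control, at 0.982 ± 0.217 CPM (SD, n = 3), and on 72 reads in 2G8 tumors, at 2.56 ± 0.599 CPM (SD, n = 3). The difference was 0.84 on the log2(CPM + 1) scale, with a standard error of 0.32 (limma, unadjusted p = 0.0343, adjusted p = 1.00), and the ratio of the mean CPM was 2.61. The pseudocount makes the first value smaller than the log2 of the second. The exact two-sided permutation test again gave p = 0.1.

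**Figure D2:**
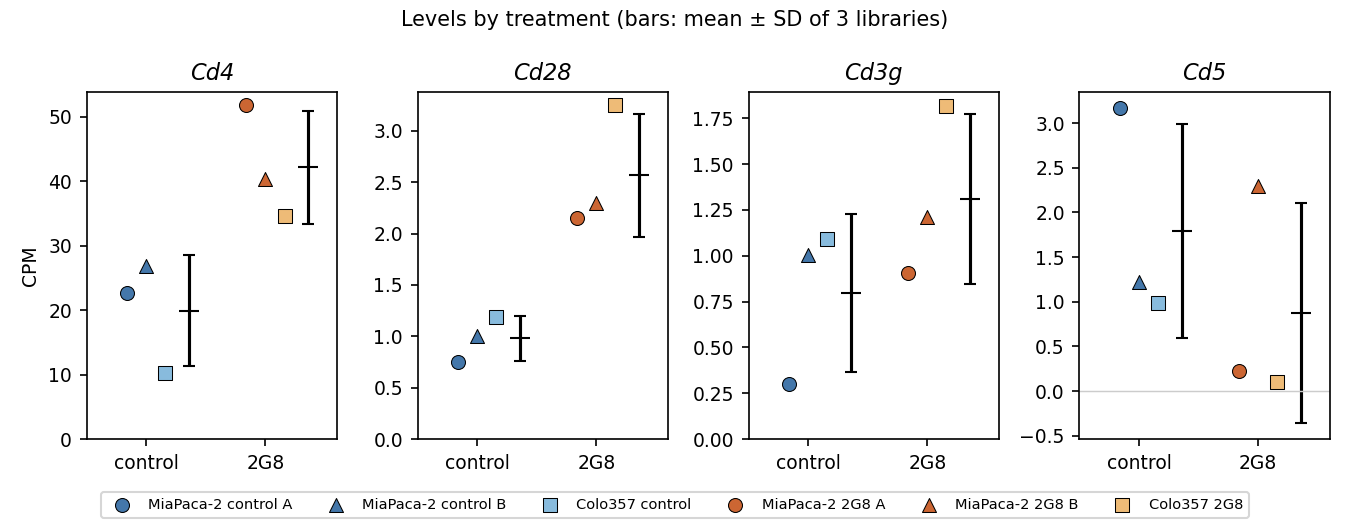
CPM of Cd4, Cd28, Cd3g and Cd5 in the 3 control and the 3 2G8 libraries, each panel with its own linear axis from 0 (below 0 where the SD reaches there), where points are libraries and bars show the mean and SD of 3. For Cd4 and Cd28 the 2G8 libraries sit above the control libraries, and for Cd3g and Cd5 the groups overlap.

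Cd5 was at 3.17, 1.22 and 0.990 CPM in the control libraries, and at 0.226, 2.30 and 0.0956 CPM in the 2G8 libraries. The groups overlapped, since MiaPaca-2 2G8 B was above 2 of the 3 control libraries. The difference was -0.69 on the log2(CPM + 1) scale with a standard error of 0.55 (limma, unadjusted p = 0.255, adjusted p = 1.00). The exact two-sided permutation test gave p = 0.5.

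The 6 genes under the filter were compared by their values and the exact test, since the filter kept them out of the limma fit. Cd3g was at 0.302, 1.00 and 1.09 CPM in the control libraries, and at 0.904, 1.21 and 1.82 CPM in the 2G8 libraries, so the groups overlapped (exact two-sided permutation test, p = 0.3). The groups also overlapped for Cd3d (p = 0.6 in the same exact test), Cd8a (p = 0.5), Ms4a1 (p = 0.2) and Cd79a (p = 0.9). For Cd3e every 2G8 library was below every control library in CPM (exact two-sided permutation test, p = 0.1). In reads MiaPaca-2 control A and MiaPaca-2 2G8 B were equal, at 1 read each, and only the library size set them apart. The sums were 6 reads in control and 1 in 2G8 tumors. Of the 17148 genes with a read, 2.96% had all 3 treated libraries above all 3 controls and 2.76% had them all below. Among the 9 lymphocyte genes 2 were above and 6 overlapped, and Cd3e was below with this tie in reads.

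The values of other leukocyte genes are given beside those of Cd4 and Cd28, because in bulk tumors fewer cells of a type and less RNA per cell cannot be told apart. Ptprc, which encodes CD45 and marks all leukocytes, was at 449, 426 and 322 CPM in control and at 532, 516 and 431 CPM in 2G8 tumors. Its groups overlapped, although within each cell line the 2G8 libraries were above the controls. For each 1000 reads of Ptprc, Cd4 had 50.5, 63.0 and 32.0 reads in the control libraries, and 97.2, 78.0 and 80.1 reads in the 2G8 libraries. The groups did not overlap on this scale either (exact two-sided permutation test, p = 0.1). For each 1000 reads of Csf1r, the receptor for macrophage colony stimulating factor, Cd4 had 37.3, 61.8 and 25.2 reads in control and 69.4, 71.8 and 54.4 in 2G8 tumors. Here the groups overlapped, since Colo357 2G8 was below MiaPaca-2 control B (exact two-sided permutation test, p = 0.2). This test takes no account of the cell line, and within each line the 2G8 libraries were above the controls.

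Cd28 had 1.68, 2.35 and 3.69 reads in the control libraries for each 1000 reads of Ptprc, and 4.03, 4.45 and 7.54 in the 2G8 libraries, with no overlap (exact two-sided permutation test, p = 0.1). Per 1000 reads of Csf1r the groups of Cd28 overlapped (exact two-sided permutation test, p = 0.2). Within each line its 2G8 libraries were above the controls. They were at 2.88 and 4.10 against 1.24 and 2.31 in MiaPaca-2, and at 5.12 against 2.91 in Colo357. Per 1000 reads of Itgax, an integrin gene of dendritic cells and other myeloid cells, the groups overlapped for Cd4 (exact two-sided permutation test, p = 0.2) and for Cd28 (p = 0.4 in the same exact test). For both genes the 2G8 libraries were again above the controls within each line. Itgax itself was between 243 and 403 CPM in the MiaPaca-2 libraries, and at 51.1 and 49.4 CPM in Colo357. The exact test of these ratios takes no account of that difference between the lines. Cd5 overlapped on all 3 scales. These ratios were chosen after the data had been seen. All 12 genes of a macrophage list had a positive difference, beside 49.0% of all tested genes. Their median was 0.45 on the log2(CPM + 1) scale, beside a median of -0.01 over all tested genes. Of the 12, 2 genes, Cd68 and Mertk, had 2G8 groups wholly above control, beside 3.36% of all tested genes. The summed level of the macrophage list was between 4183 and 7663 CPM in control and between 7354 and 8587 CPM in 2G8 tumors. The part of these cells in the values of Cd4 and Cd28 was not tested.

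The 2 cell lines were then compared with treatment as a covariate, 2 Colo357 against 4 MiaPaca-2 libraries. At the same cutoffs limma called 153 genes, or 1.13% of those tested, and none of Cd4, Cd28 and Cd5 was among them. An unadjusted p under 0.05 was found for 20.3% of the tested genes. Cd4 was the only one of the 3 under this p, with a difference of -0.79 on the log2(CPM + 1) scale, Colo357 minus MiaPaca-2 (standard error 0.24, adjusted p = 0.102 in limma). Leaving out each library in turn moved it between -1.18, without Colo357 2G8, and -0.39, without the Colo357 control, where the unadjusted p in limma was 0.237. Its libraries overlapped between the lines, since Colo357 2G8 lay between the MiaPaca-2 control and MiaPaca-2 2G8 libraries (exact two-sided permutation test, p = 0.4). Cd5 differed by -0.74 (adjusted p = 0.490 in limma) and Cd28 by 0.31 (adjusted p = 0.672 in limma) on the same scale.

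Within MiaPaca-2 tumors the difference with 2G8 on the log2(CPM + 1) scale was 0.86 for Cd4, 0.78 for Cd28 and -0.60 for Cd5. Within Colo357 tumors, with 1 library per treatment and no replicate check, it was 1.65 for Cd4, 0.96 for Cd28 and -0.86 for Cd5. All 3 genes thus had the same sign in both lines. The difference of the 2G8 effect between the lines was 0.79 for Cd4, with a standard error of 0.45, and the adjusted p was 1.00 for each of the 3 genes (limma, interaction term). At an FDR of 0.05 this test called 1 gene of 13587, or 0.00736%, which was Amy2a5, a pancreatic amylase named after its value was seen. The spread in this test comes from the MiaPaca-2 libraries alone.

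The other genes of T cells were taken from 2 lists. The list of T cell receptor signaling held 16 genes, of which 10 were tested and none was called with 2G8. In this list 8 genes were higher and 2 lower by the sign of their difference, with a median of 0.29 on the log2(CPM + 1) scale. Lck, the kinase that starts the signal at the receptor, was at 2.57, 4.01 and 4.16 CPM in control and at 5.54, 4.47 and 7.17 CPM in 2G8 tumors. It was the only one of the 10 whose groups did not overlap, where the share among all tested genes was 3.36% (limma, unadjusted p = 0.103). Cd247, the remaining signaling chain of the T cell receptor, had 0, 6 and 11 reads in the control libraries, against 4, 3 and 4 with 2G8. Its mean level was 0.0924 CPM per kilobase, below the 0.211 of Cd3d on that scale.

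Lcp2 and Fyb, adaptor proteins that myeloid cells use too, were far higher, between 98.1 and 188 CPM for Lcp2 and between 189 and 469 CPM for Fyb. Themis, a gene of developing T cells, had 6 reads in the Colo357 control, 1 in Colo357 2G8 and 0 in the 4 MiaPaca-2 libraries. Trat1, a T cell receptor adaptor, had 3 reads in the Colo357 control and 0 elsewhere. Bcl11b, a factor that commits precursors to the T lineage, had 26 reads in the Colo357 control, 8 in Colo357 2G8 and between 0 and 6 in the MiaPaca-2 libraries. These 3 genes were named after their values were seen. By CPM the Colo357 control was the highest library for 5 of the 16 genes of T cell receptor signaling, 1 of 13 genes of T cell identity with a read and 2 of the 9 lymphocyte genes, beside 3643 of all 17148 genes with a read.

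Of the 14 genes in the list of T cell identity and subsets, 6 were tested and none was called, with 4 higher and 2 lower. Cd40lg, the ligand by which helper T cells activate B cells, had 0 reads in all 6 libraries. Foxp3, the factor of regulatory T cells, had at most 3 reads and Ctla4, an inhibitory receptor for Cd80 and Cd86, at most 5. The highest level of the list was that of Il7r, the interleukin 7 receptor chain, between 12.3 and 41.1 CPM. The constant segments of the T cell receptor and of the antibody chains had no value under the symbols looked for. They were therefore not analysed here.

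**Figure D3:**
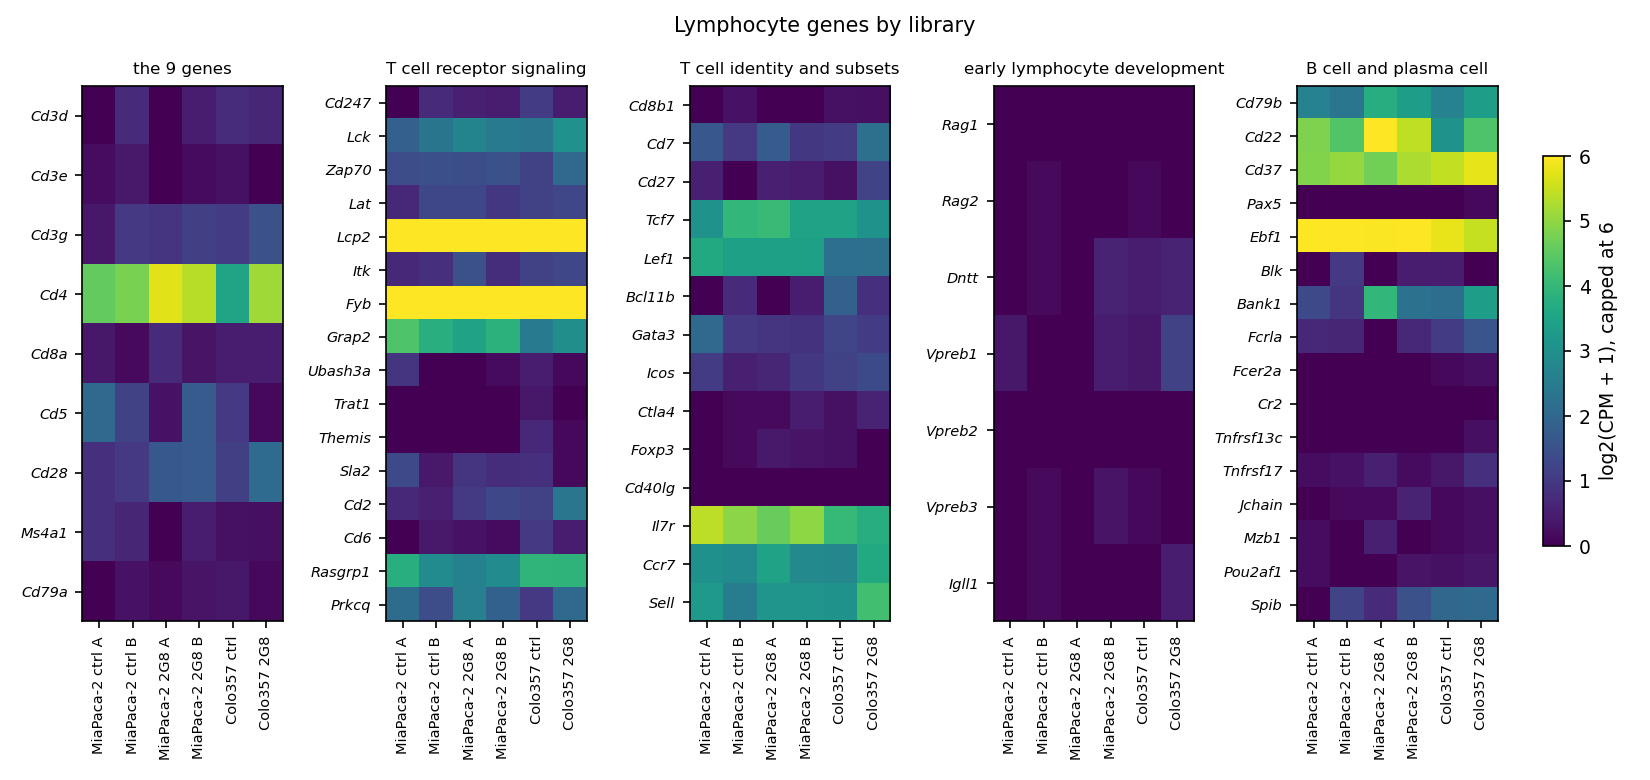
Heat maps of log2(CPM + 1), capped at 6, for the 9 lymphocyte genes and 4 lists of T cell, B cell and early lymphocyte genes, with genes in rows and the 6 libraries in columns. Cd4 stands out among the 9 genes with a mean of 42.2 CPM in 2G8 tumors, and Rag1, Vpreb2, Cr2 and Cd40lg are dark in all 6 columns, at 0 reads.

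None of the 7 early lymphocyte genes had enough reads to be tested. Rag1 had 0 reads in each library and Rag2 at most 1. Dntt, which adds bases where the segments are joined, had 0, 1 and 4 reads in the control libraries, against 0, 4 and 5 with 2G8. Vpreb1, a chain of the receptor of B cell precursors, had 13 reads in Colo357 2G8 and between 0 and 3 in the other libraries. The B cell list held 17 genes. Cr2, a complement receptor of B cells, had 0 reads in all libraries, and Pax5, the factor that keeps B cell identity, had 1 read, in Colo357 2G8.

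The strain genes were read in each library. Prkdc had between 128 and 228 reads and Il2rg between 522 and 1168. Values per gene do not show which bases of a transcript were read, and neither gene therefore tells one strain from the other here. The paper's results place the xenografts whose immune changes they discuss in NOD SCID hosts. They describe NSG animals as lacking NK cells. In an NK cell list of 14 genes, 13 were tested and limma called none, while Prf1 was called by the exact test of edgeR. In this list 7 genes (Eomes, Gzma, Gzmb, Il2rb, Klre1, Nkg7 and Prf1) had their lowest 2G8 library above their highest control, beside 3.36% of all tested genes. By the sign of their difference 11 genes were higher and 2 lower. The lower ones were Cd244 and Il18rap, both at -0.19 on the log2(CPM + 1) scale. Klrk1 and Klrd1 were lower with 2G8 within MiaPaca-2, at -0.09 and -0.43, and higher within Colo357, at 1.79 and 1.44. Prf1 passed the filter only through the 2G8 libraries, since its 3 control libraries were at 0.604, 0.445 and 0.495 CPM, so that it had to differ. The summed level of this list was 78.4, 65.6 and 62.1 CPM in the control libraries, and 81.3, 85.2 and 144 CPM in the 2G8 libraries.

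Colo357 2G8 was thus the highest library for the NK cell list, and it was also the highest for Cd3g and Cd28. It held the highest value for 10 of 14 NK cell genes, 7 of 12 dendritic cell genes and 8 of 15 B cell genes with a read. It also did so for 5 of 9 genes in a list of partners of Cd4 and Cd28, and 5 of 12 macrophage genes. The same held for 6 of 13 genes of T cell identity with a read, 3 of 16 of T cell receptor signaling and 2 of the 9 lymphocyte genes. Over all genes with a read this library held 16.6% of the highest values. Cd2 and Cd7, surface proteins that T cells share with NK cells, had 43 and 38 reads in this library and between 4 and 21 in the others. The part of NK cells or other leukocytes in the values of Cd3g and Cd28 was not tested.

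The list of partners of Cd4 and Cd28 held 9 genes. It was a loose grouping, with Ciita, Icosl and Il16 beside class II genes, Cd80 and Cd86. Not all of its genes encode a molecule that Cd4 or Cd28 binds. All 9 genes had 3 or more reads in every library, at very different levels. H2-Ab1, a chain of the MHC class II molecule that Cd4 binds, was between 211 and 395 CPM, and Cd74, the invariant chain of class II, between 689 and 1261 CPM. Of the ligands of Cd28, Cd80 was between 3.93 and 11.2 CPM and Cd86 between 48.7 and 169 CPM. All 9 genes of the list had a positive difference with 2G8, beside 49.0% of all tested genes. None was called, and the median was 0.25 on the log2(CPM + 1) scale. The differences of Icosl and Cd86 were the smallest, at 0.01 and 0.07. Icosl was lower with 2G8 within Colo357, at -0.11, and Cd86 within MiaPaca-2, at -0.03. In MiaPaca-2 tumors Cd86 reached 161 and 134 CPM with saline and 121 and 169 CPM with 2G8, whereas both Colo357 libraries were lower, at 48.7 and 59.1 CPM.

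Which genes followed the pattern of Cd4 was described by Pearson's r of log2(CPM + 1) over the 6 libraries, among 73 tested genes of the lists. Cd4 was the only lymphocyte gene with at least 10 reads in each library. The 5 genes most like it were Ptprc (r = 0.95), Mertk (r = 0.95), Cd68 (r = 0.93), Cd22 (r = 0.90) and Eomes (r = 0.88). Mertk and Cd68 are macrophage genes, Cd22 is a sialic acid receptor known from B cells, and Eomes is a transcription factor of NK cells. Other genes of the same lists differed from these, with r from -0.34 to 0.95 over the macrophage list and from -0.43 to 0.88 over the NK cell list. The median r was 0.71 over the macrophage list, 0.45 over the NK cell list and 0.43 over the list of T cell receptor signaling. It was 0.33 over T cell identity and subsets, 0.31 over the dendritic cell list and 0.28 over the B cell list. For the list of partners of Cd4 and Cd28 the median was 0.08, and for eosinophil and mast cell genes -0.02. Over all other tested genes it was 0.00, and 0.854% of them had an r of at least 0.9. The 6 points share their treatment, cell line and library, so r is given as a description.

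**Figure D4:**
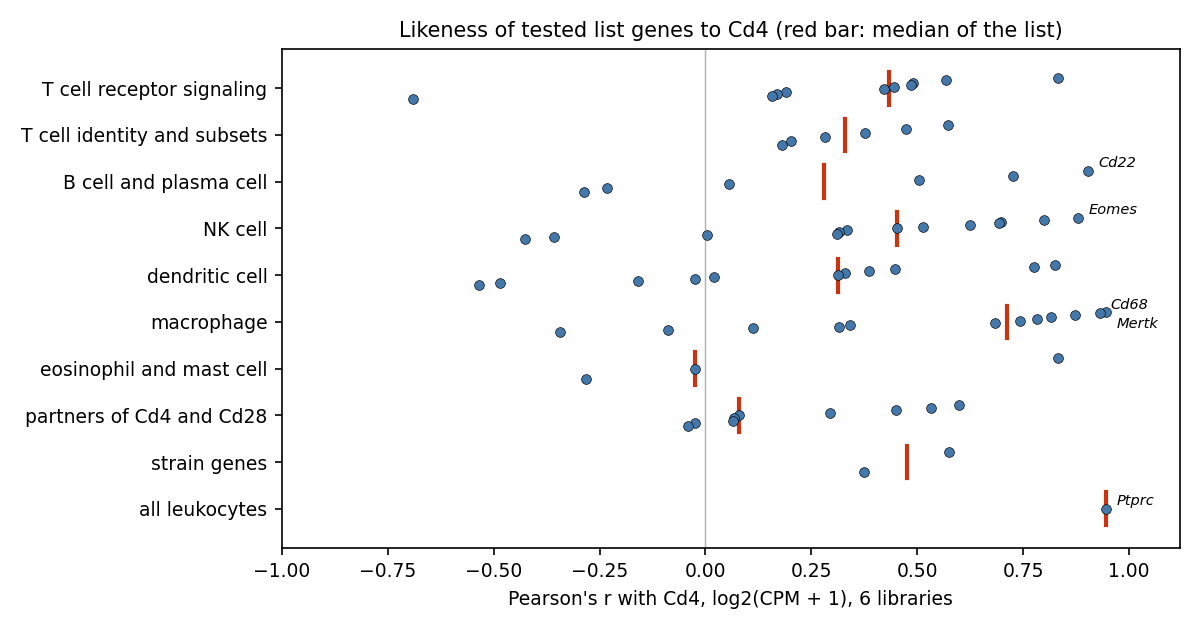
Pearson's r with Cd4 over the 6 libraries for the tested genes of each list, where points are genes, the 5 highest are named and the red bar is the median of a list. The macrophage list has a median of 0.71 and the list of T cell receptor signaling one of 0.43.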

How the data were processed

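The deposited table holds 1 value per library and coding gene, a signal that the authors made from gene counts of stranded total RNA libraries aligned to mm10, as CPM of a library size scaled by edgeR. The aligner and the counting tool are not given in the sources used here. The paper's results name primers specific to mouse, which its methods do not describe, so how human reads were kept out is unclear. Each value divided by that of 1 read gave a whole number (within 0.01 read), so reads were recovered. The columns show each group but no replicate number. Genes kept by edgeR's filterByExpr were tested with limma-trend after log2(CPM + 1), and p-values were adjusted by Benjamini-Hochberg over 13587 genes. Had the values been counts, the quasi-likelihood test of edgeR would have been the main one. Single genes were compared by exact two-sided permutation tests of the mean CPM, or of log2 ratios. Positions and exon lengths are from GENCODE vM21 (mm10). Every lymphocyte gene is named. From a list up to 8 genes could be named, highest levels first, besides those whose groups did not overlap and defining genes at 0, and not all of these are named. Cd247, Cd8b1, Themis, Trat1, Bcl11b, Foxp3, Ctla4 and Pax5 were named after their values were seen. Other scalings, filters, pseudocounts, tools and libraries left out were tried. The genes and lists were chosen with earlier results of these data known. The scripts were tested on simulated data. Versions were R 4.3.3, limma 3.58.1, edgeR 4.0.16 and DESeq2 1.42.0. A few genes are left unreported and are not drawn. The protein, PCR and single-cell data of the study were not analysed here.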

Additional observations from a re-analysis of the deposited data

Results flagged for a closer look

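Amy2a5 is the only gene for which the test of the difference between the lines passed, and it is no lymphocyte gene. Its 2G8 effect in Colo357 minus that in MiaPaca-2 was -7.43 on the log2(CPM + 1) scale (adjusted p = 0.0257 in limma). It was at 121, 71.6 and 237 CPM in the control tumors, and at 413, 259 and 3.83 CPM in the 2G8 tumors (MiaPaca-2 A, then B, then Colo357).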

How the results depend on the processing

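No paired analysis was possible because the columns of the values carry no replicate numbers. For Cd4, Cd28 and Cd5 no alternative changed the sign of a difference or brought a call. Leaving out each library in turn, the 2G8 difference ran from 0.73 to 1.38 for Cd4, from 0.71 to 0.92 for Cd28 and from -1.19 to -0.36 for Cd5. A pseudocount of 0.1 gave 1.30 for Cd28 and -1.65 for Cd5. On the recovered reads, the log2 fold change of Cd28 was 1.36 in edgeR's quasi-likelihood test and 1.37 in DESeq2's Wald test. That of Cd5 was -1.04 and -1.05 in the same 2 tests. Cd28 and Cd5 have no value under a minimum of 10 reads in every library. Over all genes, the 2G8 comparison called 5 genes in edgeR's exact test and 5 in its likelihood ratio test, which was added after the data were seen, and 4 in DESeq2's Wald test, against 0 in limma. Those of the exact test included Ccr3, Mmp13, Vcam1 and Prf1, named after their values were seen. The comparison of the lines called 153 genes in limma and 94 in edgeR's quasi-likelihood test. Leaving out a library it called between 6 and 197, with 6 without MiaPaca-2 control A, 7 without the Colo357 control, 13 without Colo357 2G8, 99 without MiaPaca-2 control B and 101 without MiaPaca-2 2G8 B. The cause was not tested. With a limit of 1 read, 5 lymphocyte genes passed in every library, and with 10 reads 1 did in every library and 4 in at least 1. At 3 reads, leaving out a library gave between 2 and 3 genes in every library and between 8 and 9 in at least 1. Cd3d, Cd3e, Cd8a, Ms4a1 and Cd79a rest on few reads, and with no filter limma gave them unadjusted p-values between 0.0823 and 0.878.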

Other observations

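Some genes named for B cells were well above the reads of Ms4a1 and Cd79a. Cd79b, the partner chain of Cd79a in the B cell receptor, was at 5.28, 4.12 and 5.35 CPM in the control libraries (MiaPaca-2 A, then B, then Colo357), and at 12.3, 9.31 and 9.18 CPM in the 2G8 libraries. Its groups did not overlap, and the difference was 0.92 on the log2(CPM + 1) scale with a standard error of 0.24 (limma, unadjusted p = 0.00639, adjusted p = 1.00). Cd79a had at most 3 reads in the libraries where Cd79b had between 35 and 109. Bank1, an adaptor of B cell receptor signaling, was at 1.51, 0.890 and 3.47 CPM in control and at 14.6, 3.75 and 9.37 CPM in 2G8 tumors, again with no overlap (limma, unadjusted p = 0.0130, adjusted p = 1.00). Of the 6 tested genes of the B cell list, these 2 had 2G8 groups wholly above control, beside 3.36% of all tested genes. Among all tested genes 1.91% had an unadjusted p under 0.05 in limma.

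Cd22 was at 27.6, 19.8 and 7.53 CPM in control and at 73.8, 42.3 and 19.3 CPM in 2G8 tumors. Its groups overlapped, although within each cell line the 2G8 libraries were above the controls. Cd37, a tetraspanin of leukocytes, was between 25.3 and 53.9 CPM. Ebf1, a factor of early B cells that other tissues also use, was between 43.5 and 114 CPM. Of the 17 genes in the B cell list 6 were tested, 5 of them higher and 1 lower with 2G8, and none was called. In these libraries Cr2 had 0 reads and Pax5 had 1.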
